A study of Mus musculus with 4 samples.

Results

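The Forkhead (Fox) and Sox genes encode 2 families of transcription factors. They were examined here for peaks of the tagged histone demethylase Fbxl10, found by chromatin immunoprecipitation and sequencing (ChIP-seq) with an HA antibody in mouse embryonic fibroblasts. All protein-coding genes of the RefSeq GRCm38 table whose symbol is Fox with a class letter from a to s and a number, or Sox with a number, were counted as members. The rule found 63 genes, 44 Fox and 19 Sox, of 21883 protein-coding nuclear genes placed on the assembly. A peak was counted as near a gene when it lay within 1 kb of either gene end, and as at a gene when it lay within 5 kb of an end or inside the gene.

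Fbxl10, also called Kdm2b, is a histone demethylase with a CXXC zinc finger, a domain that binds CpG dinucleotides without methylation, and it is known as a subunit of a Polycomb complex that marks genes of developmental regulators. Fox proteins bind DNA through a winged-helix domain, and they include pioneer factors of endoderm, regulators of organ mesenchyme and the FoxO factors that insulin signalling keeps out of the nucleus. Sox proteins bind the minor groove through an HMG box, and they direct pluripotency, neural, cartilage and endothelial fates.

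All 4 libraries came from fibroblasts labelled as overexpressing HA-tagged Fbxl10, the controls included. Induced cells had received 1 µg/ml doxycycline for 48 hours, non-induced cells had not, and each state gave 1 HA ChIP library and 1 input library. The sources used here do not give the strain, the promoter behind the tagged protein or the number of cell lines. The data analysed were 1 peak list per ChIP state, with 5497 induced and 10532 non-induced peaks, each with a score written by the authors' peak caller that began at 50 in both. Kdm2b had 0 peaks at the gene in either list. Peak lists measure no expression, so the fibroblast label could not be set against markers, and with 1 list per state no difference between states has a replicate check. Read depth is unknown, and every interval below is an exact (Clopper-Pearson) 95% binomial interval, which covers counting error only.

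Promoter windows of 5 members are shown first, because few induced peaks of the family lay over such windows and because their CpG content differs widely. Each runs from 250 bases before to 50 bases after a RefSeq transcript start, 5′ to 3′ on the gene's own strand (RefSeq, build GRCm38.p6), and capitals mark each CG dinucleotide. Foxp4 (chr17:47924583-47924882, minus strand, 33 CG), Sox6 (chr7:116030998-116031297, minus strand, an internal start, 13 CG) and Foxb2 (chr19:16873781-16874080, minus strand, 10 CG) had the highest-scoring induced peaks over a window, with scores of 97.4, 94.1 and 93.3. Sox12 (chr2:152397997-152398296, minus strand, 47 CG) and Foxr2 (chrX:153118538-153118837, plus strand, 3 CG) had the most and the fewest CG among the 24 members without an induced peak at the gene for which a window was available.
Foxp4: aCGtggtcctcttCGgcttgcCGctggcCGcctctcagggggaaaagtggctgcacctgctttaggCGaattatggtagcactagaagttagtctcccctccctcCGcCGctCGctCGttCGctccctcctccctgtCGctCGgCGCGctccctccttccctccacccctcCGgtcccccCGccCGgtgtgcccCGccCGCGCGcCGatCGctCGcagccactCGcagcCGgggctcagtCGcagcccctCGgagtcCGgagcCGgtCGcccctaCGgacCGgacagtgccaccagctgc
Sox6: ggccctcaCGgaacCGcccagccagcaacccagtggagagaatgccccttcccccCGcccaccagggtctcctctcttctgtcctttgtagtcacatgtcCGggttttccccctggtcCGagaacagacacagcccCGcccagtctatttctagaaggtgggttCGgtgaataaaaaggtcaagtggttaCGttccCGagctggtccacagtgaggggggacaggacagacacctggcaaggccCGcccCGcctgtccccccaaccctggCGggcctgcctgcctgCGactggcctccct
Foxb2: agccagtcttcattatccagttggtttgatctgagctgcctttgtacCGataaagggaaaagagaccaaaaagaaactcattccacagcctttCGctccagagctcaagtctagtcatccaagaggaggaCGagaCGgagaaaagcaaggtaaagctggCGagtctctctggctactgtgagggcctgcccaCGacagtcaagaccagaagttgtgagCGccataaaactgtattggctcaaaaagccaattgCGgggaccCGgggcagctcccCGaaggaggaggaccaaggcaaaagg
Sox12: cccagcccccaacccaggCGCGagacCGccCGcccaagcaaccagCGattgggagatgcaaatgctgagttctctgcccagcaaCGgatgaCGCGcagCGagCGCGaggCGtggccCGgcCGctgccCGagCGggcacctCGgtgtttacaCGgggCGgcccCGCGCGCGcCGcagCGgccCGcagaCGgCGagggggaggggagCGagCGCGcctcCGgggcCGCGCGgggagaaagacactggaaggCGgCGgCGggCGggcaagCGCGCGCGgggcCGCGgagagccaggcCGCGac
Foxr2: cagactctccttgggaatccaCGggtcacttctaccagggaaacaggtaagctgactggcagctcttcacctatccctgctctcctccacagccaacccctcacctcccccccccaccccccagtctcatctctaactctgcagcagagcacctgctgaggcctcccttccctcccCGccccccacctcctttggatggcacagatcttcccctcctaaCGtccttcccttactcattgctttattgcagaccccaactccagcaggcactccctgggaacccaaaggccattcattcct

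Induced peaks were found at Fox and Sox genes of many roles, from the pluripotency factor Sox2 to the insulin-controlled Foxo3. Of the 63 members 17 (27.0%, interval 16.6 to 39.7) had an induced peak within 1 kb of a gene end, where 13.4% of all protein-coding genes did. At the gene, within 5 kb or inside, 25 members (39.7%, 27.6 to 52.8) had one, against 21.4% of all genes. Within 1 kb, 11 of 44 Fox genes (interval 13.2 to 40.3%) and 6 of 19 Sox genes (31.6%, 12.6 to 56.6) were marked, and the intervals overlapped. The lower bound of the Fox interval and that of the Sox interval both lay under the share of all genes, while that of the whole family lay above it. These bounds are no test, since genes of 1 list are not replicates and the members were chosen with earlier results of these data known. The 25 members had 34 different induced peaks, and no peak served 2 members.

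The non-induced list marked the family about as often as other genes. Within 1 kb of an end, 1 of 63 members (1.59%, 0.0402 to 8.53) had a non-induced peak, the share of all genes being 1.59% as well. At the gene, 9 members (14.3%, 6.75 to 25.4) had one, against 12.6% of all genes. The 13 non-induced peaks at members had scores of 50.2 to 87.0, while the 34 induced ones had scores of 50.6 to 292. Whether the scores of both lists share a scale was not tested.

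**Figure D1:**
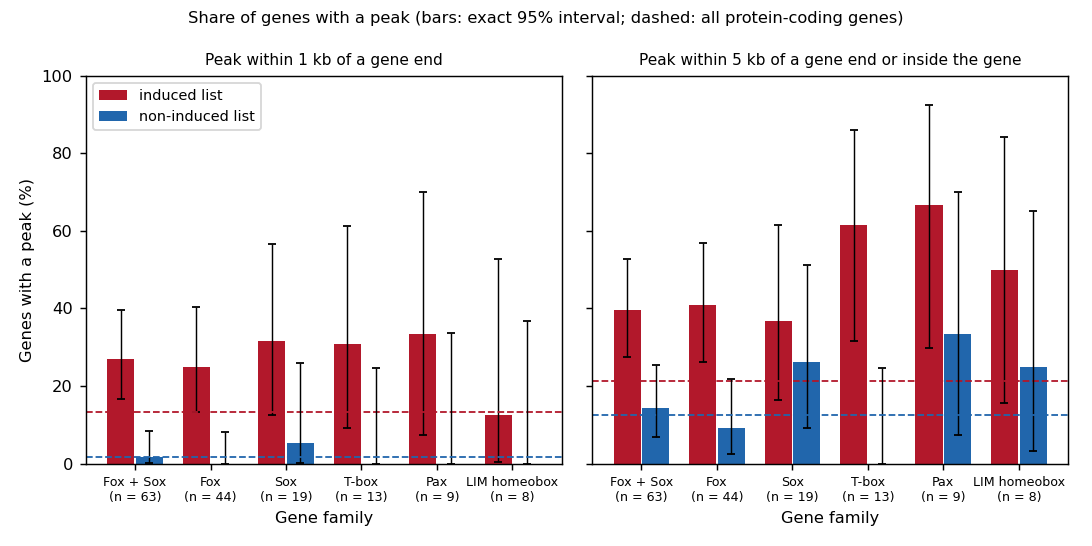
Share of genes with a peak (vertical axis, percent) in the Fox and Sox families and in 3 other families of developmental transcription factors, for the induced list (red) and the non-induced list (blue), with exact 95% intervals and the share of all protein-coding genes as dashed lines. The Fox and Sox genes together lie at 27.0% and 39.7% in the induced list, above the dashed lines at 13.4% and 21.4%, and at 1.59% and 14.3% in the non-induced list, near them.

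Among other families of developmental transcription factors, T-box genes had an induced peak within 1 kb in 4 of 13 cases, Pax genes in 3 of 9 and LIM homeobox genes in 1 of 8. At the gene these families had 8, 6 and 4 marked genes. Their intervals at the gene (31.6 to 86.1%, 29.9 to 92.5% and 15.7 to 84.3%) overlapped that of the Fox and Sox genes, and the families were not tested against each other.

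The FoxA genes of endoderm were marked unevenly. Foxa1, a pioneer factor of liver and other endoderm, had an induced peak of score 128 (rank 584 of the list) 394 bp beyond its 3′ end, and no non-induced peak within 207 kb. Foxa2, its close relative, had an induced peak of score 55.0 (rank 4270 of 5497) at 4.86 kb beyond its 3′ end. A non-induced peak of score 59.7 (rank 5485 of 10532) lay at 3.64 kb, so both lists marked the same flank. Foxa3 had none, and its nearest induced peak was 203 kb away.

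Foxq1, known from the satin hair mutation of mice, had the second-highest induced score of the family. An induced peak of score 147 (rank 396, 1037 bp wide) covered its lower-coordinate end and 36.4% of the gene, and a peak of score 69.1 lay 365 bp outside that end. No non-induced peak lay within 57.5 kb. Its neighbour Foxf2, a factor of organ mesenchyme 64.8 kb further along chromosome 13, had its nearest induced peak 66.6 kb away, and Foxc1, a factor of eye and vessel development beyond it, 53.4 kb away.

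Foxc2, a factor of lymphatic vessels, and Foxl1, a factor of gut mesenchyme, lie 8.79 kb apart on chromosome 8, and each had its own induced peak. The Foxc2 peak (score 61.9) lay inside the gene and covered 29.8% of it. The Foxl1 peak (score 104) lay 1.67 kb outside the gene, between the pair. Foxf1, of lung and gut mesenchyme, lies 28.0 kb from Foxc2 and had no peak at the gene in either list, its nearest induced peak being 8.31 kb away.

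Both FoxB genes and 2 of the FoxD genes had induced peaks of scores under 100. Foxb1, a factor of the hypothalamus, had an induced peak of score 72.4 inside the gene. Foxb2 had a peak of 93.3 over its 5′ end that covered 42.6% of the gene. Foxd1, of kidney stroma, had peaks of 52.7 and 52.2, among the weakest of the family, and Foxd2 peaks of 64.5 and 54.7. None of these genes had a non-induced peak at the gene, and the nearest lay between 30.2 kb (Foxb1) and 257 kb (Foxd2) away.

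Foxl2, the factor that maintains ovarian granulosa cells, had an induced peak of score 122.76 (rank 662). It was 1311 bp wide, crossed the 3′ end and covered 51.7% of the gene. Foxe1, of the thyroid, had peaks of 57.7 and 55.3 on either flank, the nearer 1.24 kb from the gene. In neither gene did the non-induced list hold a peak at the gene.

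The FoxO genes held the highest score of the family and no peak within 1 kb of an end. Foxo3, a factor that Akt phosphorylation keeps in the cytoplasm, had an induced peak of score 292 (rank 39 of 5497), 1636 bp wide and 1.10 kb inside the gene from its 5′ end (chr10:42273955-42275590, mm10). The next score in the family was 147. A noncoding gene, Gm38485, also has an end within 1 kb of that peak. No non-induced peak lay within 104 kb of Foxo3.

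Foxo1 was marked in both lists. Its induced peak (score 59.6) began 1.20 kb inside the 5′ end. A non-induced peak of score 87.0 (rank 792 of 10532) followed 823 bp further in, and a second one of 66.9 lay deeper in the gene. Foxo4, on chromosome X, and Foxo6 had no peak at the gene, with the nearest induced peaks 2320 kb and 282 kb away. Foxo4, Foxp3, Foxr2 and Sox3 are the 4 members on X, where 0.0% of 966 genes had an induced peak within 1 kb of an end. On the autosomes the share within 1 kb was 17 of 59 members (28.8%, 17.8 to 42.1), against 14.2% of autosomal genes.

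Of the FoxP repressors, Foxp4 had an induced peak of score 97.4 (rank 1243) just upstream of its 5′ end, over the promoter window printed above, and one of 58.1 inside the gene. Foxp2, known for its part in vocal learning, had an induced peak of 106 at 2.29 kb outside the gene and 3 non-induced peaks inside it, with scores of 76.9, 60.5 and 51.9, the nearest to a gene end at 78.8 kb. Foxp1 had 1 non-induced peak of 50.2, close to the lowest score in that list, and no induced peak within 262 kb. Foxj2 had an induced peak of 90.7, 55 bp inside its 5′ end, and Foxk2 one of 50.6 deep inside the gene.

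Among Sox genes the SoxB group, of pluripotent and neural cells, had 4 of the 7 induced peaks within 1 kb of an end. Sox2, a core pluripotency factor, had an induced peak of score 114 (rank 818) that covered 46.3% of its gene and a second of 51.1 over its 3′ end, and no non-induced peak within 59.1 kb. Sox14 and Sox21, which act as repressors in neural tissue, had induced peaks of 90.8 and 78.2. Sox21 was the single member with a non-induced peak within 1 kb: score 85.5 (rank 857), over the 3′ end, 230 bp from the induced peak. Sox1 and Sox3, the close relatives of Sox2, had no peak in either list.

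Sox11, a SoxC factor of young neurons, had an induced peak of score 89.9 over its 5′ end and a higher one of 123.22 inside the gene. The other SoxC genes, Sox4 and Sox12, had none. Sox12 has the CG-richest promoter window of the 24 members without an induced peak for which a window was available. The induced peaks nearest to Sox4 and Sox12 lay 45.9 kb and 15.7 kb away.

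The cartilage trio Sox5, Sox6 and Sox9 had peaks of both lists at the gene. Sox5 (954 kb) and Sox6 (570 kb) are long genes, in which a peak anywhere inside was counted. Sox9, the master factor of chondrocytes, held the single site of the family in which peaks of both lists overlapped. Its induced peak (score 90.4, 1497 bp wide, 495 bp outside the gene) contained the whole non-induced peak (score 51.2, 587 bp wide). The share of all induced peaks that overlap a non-induced one is not given here, so this site does not set the family apart. Sox6 had 3 induced peaks in the part of the gene nearest its 5′ end, with scores of 126, 94.1 and 67.4, and 2 non-induced peaks of 53.4 and 50.7, at 181 kb and 116 kb from the nearer end. Sox5 had 1 peak of each list inside the gene, with scores of 62.1 (induced) and 61.5 (non-induced), which lay 128501 bp apart. Sox30, of male germ cells, had a non-induced peak of 59.0 and no induced one.

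**Figure D2:**
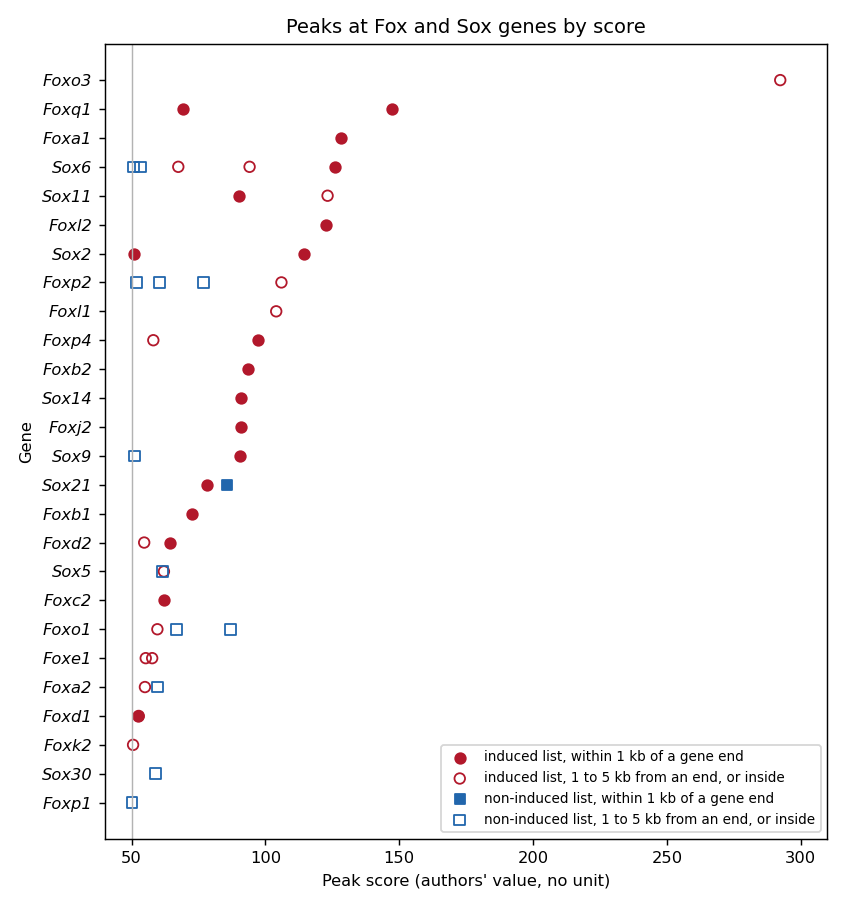
Score of the peaks at Fox and Sox genes described in the text (horizontal axis, the authors' value without unit), by gene (vertical axis), with red circles for the induced and blue squares for the non-induced list; filled symbols lie within 1 kb of a gene end. Foxo3 stands alone at 292, the other induced peaks lie at or below 147, and the non-induced peaks lie between 50.2 and 87.0.

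In 36 members (57.1%) neither list held a peak at the gene, beside 70.1% of all protein-coding genes. These were Foxa3, Foxc1, Foxd3, Foxd4, Foxe3, Foxf1, Foxf2, Foxh1, Foxi1, Foxi2, Foxi3, Foxj1, Foxj3, Foxk1, Foxm1, Foxn1, Foxn2, Foxn3, Foxn4, Foxo4, Foxo6, Foxp3, Foxr1, Foxr2, Foxs1, Sox1, Sox3, Sox4, Sox7, Sox8, Sox10, Sox12, Sox13, Sox15, Sox17 and Sox18. They include whole classes: all 3 FoxI genes, all 4 FoxN genes (Foxn1 is the factor of thymic epithelium) and all 3 SoxF genes, which act in endothelium. Classes of this size cannot be set apart from other genes, since the exact interval of 0 marked genes reaches 60.2% for 4 genes and 70.8% for 3. The 38 members without an induced peak had their nearest one 5.56 kb (Sox15) to 10200 kb (Sox3) away, with a median of 116 kb, and in 12 of them it lay within 50 kb. These distances are not given here for all genes, so they describe the members only.

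The induced peaks of the family lay further downstream of the gene start than those of all genes. The promoter table gave a strand for 41 members, and the 5′ gene end is the outermost end of the gene on that strand. These had 17 induced peaks with a midpoint within 5 kb of the 5′ gene end, and 11 of the 17 (64.7%) had it 1 to 3 kb downstream, while 559 of 3100 such gene and peak pairs over all protein-coding genes had it there. In the first kilobase of the gene it was 1 of 17 (5.88%) for members and 38.2% for all genes. The median midpoint was 1666 bp downstream for members and 218 bp for all genes. Of the 41 windows nearest the 5′ gene end an induced peak touched 3 (7.32%), those of Foxb2, Foxp4 and Sox11, and it touched 9.47% of all 17491 such windows. The 11 peaks lay at 10 genes: Sox2 (midpoints 1461 and 2512 bp downstream), Sox6 (1167 bp), Foxo1 (1666 bp), Foxl2 (1873 bp), Foxo3 (1922 bp), Foxd1 (2012 bp), Foxp4 (2048 bp), Sox11 (2199 bp), Sox21 (2690 bp) and Sox14 (2764 bp). No test was made of this difference, since pairs of peaks and genes in 1 list are not replicates.

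Many of these positions are also the far end of a short gene. Within 1 kb of the 3′ end, 7 of 41 members (17.1%, 7.15 to 32.1) had an induced peak, against 1.62% of all genes with a strand, and within 1 kb of the 5′ end also 7 of 41 (17.1%), against 12.7%. The 7 members marked at the 3′ end were Foxa1, Foxb2, Foxd1, Foxl2, Sox2, Sox14 and Sox21, and in 5 of them the 5′ end was not marked. All 7 are under 10 kb long. Among genes under 10 kb the 3′ share was 7 of 24 members (29.2%, 12.6 to 51.1) and 2.78% of 6411 genes, members included. Lengths under that limit were not matched, genes of 1 list are not replicates, and this difference was not tested. The 5′ share in these short genes was 4 of 24 members (16.7%, 4.74 to 37.4) and 10.0% of all.

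**Figure D3:**
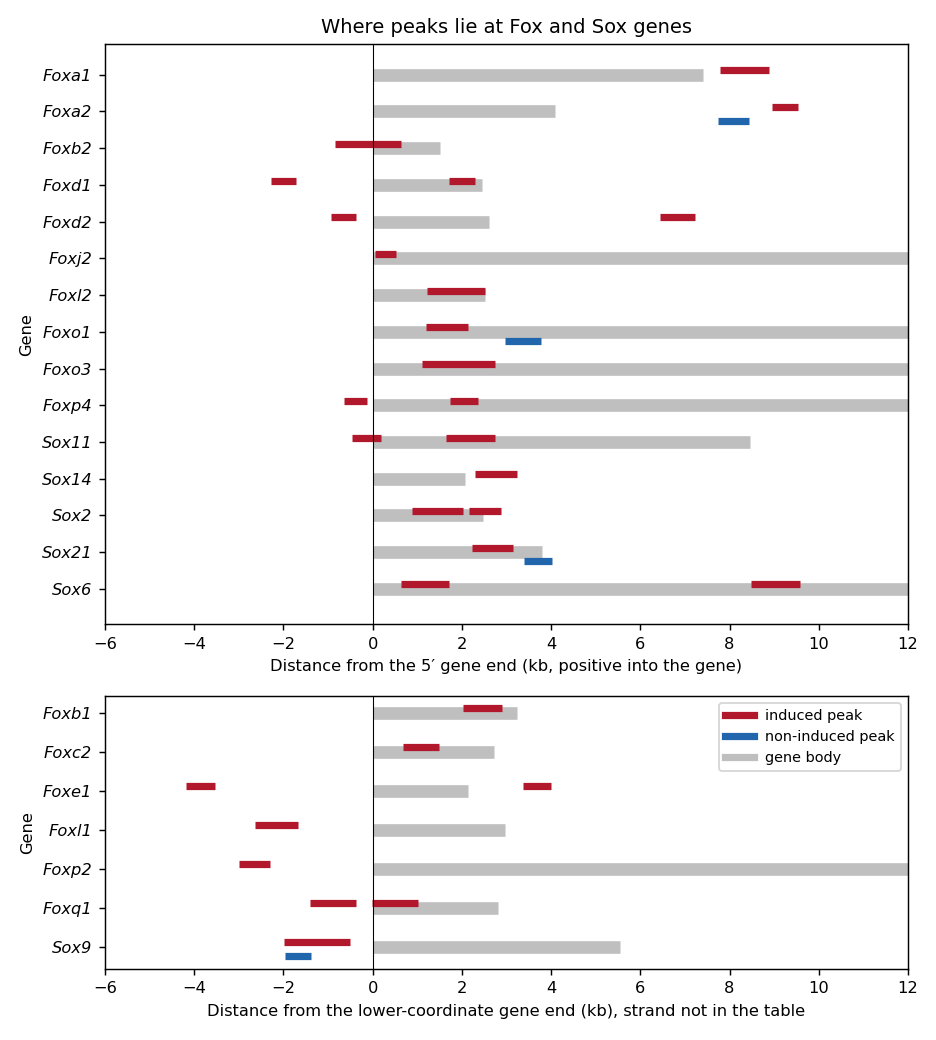
Peaks (red induced, blue non-induced) drawn to scale against the gene body (grey, cut at 12 kb), as distance in kb from the 5′ gene end for members with a known strand (upper panel) and from the lower-coordinate end for the others (lower panel). In the upper panel most induced peaks lie between 1 and 3 kb downstream of the start, as at Foxl2, Foxo3, Sox2 and Sox21, and few cross the start itself.

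**Figure D4:**
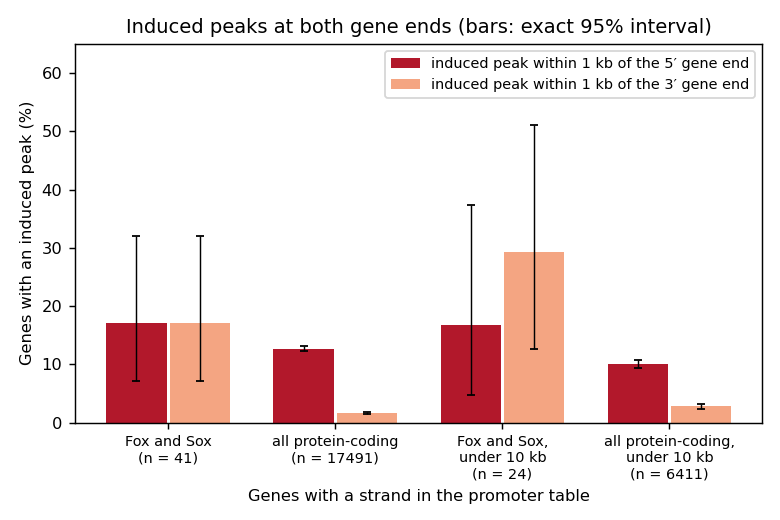
Share of genes with an induced peak within 1 kb of the 5′ end (dark) or the 3′ end (light), for Fox and Sox genes and for all protein-coding genes with a strand, and again for genes under 10 kb, with exact 95% intervals. In Fox and Sox genes both ends stand at 17.1%, while in all genes the 3′ end stands at 1.62%.

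Induced peaks near members had a higher median score and width than those at all genes, but a like share of high scores. The 19 induced peaks within 1 kb of a member's end had a median score of 90.7 (51.1 to 147) and a median width of 957 bp, against 78.6 and 864 bp for the 2590 induced peaks within 1 kb of any gene end. Of the 19, 6 (those of Foxa1, Foxl2, Foxq1, Sox2 and Sox6 among them) had a score of at least 100, and of the 2590 peaks 30.0% did. No other protein-coding gene had an end within 1 kb of any of the 19 peaks, and 4 of them (those of Foxb1, Foxd2 and Foxp4 among them) lay by an end of a noncoding gene. The same counts for the 2590 peaks are not given here, so these do not set the family apart.

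Of the 9 members with a non-induced peak, 6 were long genes. Of the 18 members of at least 20 kb, 6 (33.3%, 13.3 to 59.0) had a non-induced peak at the gene, against 22.6% of all genes that long, and of the 45 shorter members 3 did (6.67%, interval up to 18.3), against 4.25%. In the induced list the shares were 8 of 18 (44.4%, 21.5 to 69.2; all genes 26.3%) and 17 of 45 (37.8%, 23.8 to 53.5; all genes 17.2%). Per megabase of gene body, members had 2.81 non-induced peaks (11 in 3.91 Mb) and all protein-coding genes 3.68. For induced peaks the rates were 5.37 (21 peaks) and 3.67. Most of the members' length lies in Sox5, Foxp1, Sox6 and Foxp2 (954, 597, 570 and 541 kb). The rates have no interval and were not tested. The 3 shorter members with a non-induced peak were Foxa2, Sox9 and Sox21. Each of these 3 peaks lay within 1 kb of an induced peak, as did the higher of the 2 at Foxo1. The same share over all non-induced peaks is not given here, so this describes the members only.

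By the number of CG, starts of Fox and Sox genes had a higher median than those of all genes, with or without an induced peak. In the window nearest the 5′ gene end the median number of CG was 22 for 41 members (3 to 59) and 13 for 17491 genes, and the letters CG, which read the same on both strands, occurred at least once in 100% of the members' windows and in 94.8% of all. The 12 members with an induced peak within 1 kb had a median of 26 CG (10 to 37) and the 29 others 21 (3 to 59), so the ranges overlapped widely. Over all genes the medians were 23 with and 11 without an induced peak. The ratio of observed CG to the number that the window's C and G content gives had another order among marked genes, with a median of 0.781 for members and 0.811 for all genes, while without an induced peak it was 0.667 and 0.497. Among windows of 25 to 60 CG, 7 of 19 members (36.8%) were marked and 24.7% of 4267 genes. Among windows of 15 to 24 CG it was 3 of 7 members (42.9%) and 21.2% of 4006 genes, among windows of 5 to 14 CG 2 of 13 (15.4%) and 9.17% of 4111, and among windows of 0 to 4 CG 0 of 2 and 1.73% of 5097. For 7 of the 41 members the window's start lay more than 1 kb from the outermost gene end. Among them were Foxr2 (4207 bp), Foxn3 (113593 bp) and Sox5 (835181 bp). Foxr2 and Sox5 had the lowest number of CG, 3, so that minimum comes from windows away from the 5′ gene end. Methylation was not measured.

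**Figure D5:**
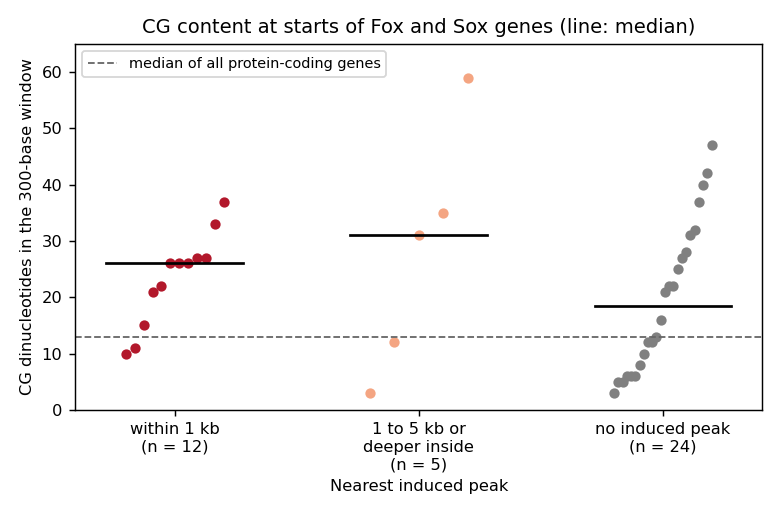
Number of CG dinucleotides (vertical axis) in the 300-base window nearest the 5′ gene end, for the 41 Fox and Sox genes with such a window. Groups are members with an induced peak within 1 kb of a gene end, members with one further out or deeper inside, and members with none. Black lines are medians and the dashed line is the median of all protein-coding genes, 13. The marked members spread from 10 to 37 and those without a peak from 3 to 47.

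Genes that act with these factors were counted from 2 lists. Both were chosen with earlier results of these data known, so their shares and intervals are a description and were not tested. Of 32 genes that control FoxO factors or are known as their targets, 9 (28.1%, 13.7 to 46.7) had an induced peak within 1 kb, beside 13.4% of all genes, and none had a non-induced one, beside 1.59% of all genes. A limit of 3 counts allows a share of up to 9.38% there, and the exact interval reaches 10.9%. The highest scores were at Bcl2l11, a pro-apoptotic gene (216), Irs2, an adaptor of the insulin receptor (130), Cat, the catalase gene (125), and Fbxo32, a ubiquitin ligase gene of muscle atrophy (106). Igf1r, Klf2, Sirt1 and Insr had scores of 67.9 to 91.0. At the gene 16 of 32 (interval 31.9 to 68.1%) had an induced peak, beside 21.4% of all genes, the cell cycle inhibitor gene Cdkn1a (162) and the kinase subunit gene Pik3r1 (132) among them. A non-induced peak at the gene was found in 5 of 32 (15.6%, 5.28 to 32.8), beside 12.6% of all genes. The kinase genes Akt1, Akt2 and Pdpk1 had no induced peak.

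Of 27 genes of Sox partners and cartilage targets, 3 (11.1%, 2.35 to 29.2) had an induced peak within 1 kb, beside 13.4% of all genes. These were Pax6, an eye factor that binds with Sox2 (126), Col2a1, the type II collagen gene that Sox9 activates (120), and the POU factor gene Pou3f1 (70.5). Col2a1 was also the 1 gene of the list with a non-induced peak within 1 kb (73.8). At the gene both lists marked 7 of 27 (25.9%, 11.1 to 46.3), while of all genes the induced list marked 21.4% and the other one 12.6%. Col9a2 (57.5) and Chst11 (64.9) had an induced peak at the gene, Col11a1 (57.9) and Hapln1 (63.0) a non-induced one, and Runx2 and Mef2c had both. The cartilage genes Acan, Comp, Matn1, Matn3, Col9a1, Col9a3 and Col11a2 had no peak at the gene in either list.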

How the data were processed

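HA ChIP-seq of induced and non-induced fibroblasts was analysed from 1 deposited peak list per state. The submitters' processing notes name Bowtie2 and mm10, and the peaks are named as MACS output, per the file contents. The sources used here do not give the caller's version and threshold, how the input served, or any pooling of the 3 samples that the protocol mentions. Each deposited score is the authors' value per peak, with no formula given, and served to describe, rank and filter peaks within a list. Groups came from the library titles.

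Peaks were placed at RefSeq genes of GRCm38.p6, which has mm10 coordinates, by an overlap of at least 1 bp. Mitochondrial genes were left out. Strand came from a RefSeq promoter table, which matched 41 of 63 members by gene ID. Members were named by rule: all with a peak near an end, the 10 highest induced scores, all with a non-induced peak, and those with none. Some genes that the rule takes are counted but not reported by name. Members and gene lists were chosen with earlier results of these data known. Of the list genes all 59 matched. No test was run. Placement was tested on simulated peaks and differed from bedtools 2.31.1 by 0 genes or peaks. Python 3.11.15, pandas 2.3.3 and SciPy 1.17.1 were used. Alternatives were score limits, list length, peak midpoints, autosomes, other windows, transcription starts alone and other overlaps.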

Additional observations from a re-analysis of the deposited data

How the results depend on the processing

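Of 28 alternatives, 18 left the count of marked members within 1.5 times its value or the CG difference within its spread, and 10 moved it. With scores of at least 100, 6 members had an induced peak within 1 kb (9.52%, all genes 4.25%) and 10 at the gene (15.9%, all genes 6.13%). A non-induced peak of such a score was found in 0 members by either rule, and in 0.11% and 0.69% of all genes. At transcription starts alone, 7 of the 41 members with a listed start (17.1%) had an induced and 0 a non-induced peak. Of all genes with a strand, 12.7% and 0.863% had one within 1 kb of the 5′ gene end. The loss of 3′ ends and of members without a listed start is part of that setting. The non-induced count at the gene, 9, became 4 at or above the list's median score (6.35%, all genes 7.33%). It became 4 without the inside of genes (6.35%, all genes 5.36%). With the list shortened to 5497 peaks it was 5 (7.94%), with no share of all genes given here. The 1 induced peak in both lists became 4 of 34 when a gap of up to 1 kb was allowed, with no share of all induced peaks given here. The difference in median CG, 5, was 7.5 for peaks at the gene and 4 for windows that start within 1 kb of the 5′ gene end, both chosen after seeing the data. Depth limits weak peaks and is unknown.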
